A study of Rattus norvegicus with 22 samples.

Results

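Whether cyclophosphamide acted differently on the transcripts of meiotic and of haploid male germ cells of the rat was measured as a difference of differences. For each gene, the change from saline to cyclophosphamide in round spermatids was subtracted from the same change in pachytene spermatocytes, on a log2 scale. All 22 arrays of the study entered this comparison, 1 array per preparation of cells. A value below 0 means that the drug effect was lower in pachytene spermatocytes than in round spermatids, and a value above 0 the reverse. The groups were pachytene spermatocytes of cyclophosphamide rats (n = 5) and of saline rats (n = 5), and round spermatids of cyclophosphamide rats (n = 6) and of saline rats (n = 6). Male rats had been given cyclophosphamide at 6 mg/kg, or saline, by gavage on 6 days of each week for 4 weeks. The cells had been separated by the STA-PUT method, which lets cells settle at unit gravity, so each preparation is enriched for a cell type and can hold others. Strain and age are not given in the sources used here.

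Cyclophosphamide is a prodrug that liver enzymes turn into an alkylating mustard, which crosslinks DNA strands. Pachytene spermatocytes are in meiotic prophase, when homologous chromosomes are paired and recombination breaks are repaired. Round spermatids are the haploid cells after the meiotic divisions, which build the acrosome and later the sperm tail and replace histones by protamines. Many genes of sperm formation are first transcribed in late pachytene cells and reach their highest transcript level in spermatids.

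The arrays were Agilent one-colour arrays hybridised with Cy3-labelled RNA, and a level here is the log2 signal of a probe minus the 75th percentile of its array. That percentile lay between 1069.7 and 2424.9 intensity units. Between 65.3% and 76.4% of an array's probes were well above background and 0 spots were saturated. The pachytene and the round spermatid markers were each higher on the arrays labelled with that cell type. The mean level of 17 pachytene markers was 1.94 to 2.25 on the pachytene arrays and 0.635 to 0.913 on the spermatid arrays. For 18 round spermatid markers it was 1.49 to 2.29 and 3.56 to 3.94. Late spermatid markers also had a strong signal on the pachytene arrays. The mean level of 14 of them was 3.65 to 4.55 on treated and 3.74 to 4.87 on saline pachytene arrays. On the spermatid arrays it was 5.85 to 6.58 and 5.78 to 6.46. The 4 groups lay on 4 slides, of which slides 1 and 2 held both cell types and slides 3 and 4 pachytene arrays alone. Some arrays of the 2 cell types carry the same treatment and rat number in the labels (for example saline rat 25), and whether these came from the same animal is not stated. The fit treats all arrays as independent, and p-values measure the spread between these arrays.

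No gene had a difference of drug effects beyond the spread between rats after correction for the number of genes. With limma, 0 of 19647 genes passed an adjusted p of 0.05, which is 0.0% of the genes tested, and the smallest adjusted p among the 11347 genes with a symbol was 0.634. At an unadjusted p below 0.05 there were 1502 genes (7.64%), 505 of them above 0 (2.57%) and 997 below 0 (5.07%). Neither drug effect had a gene that passed: the smallest adjusted p was 0.155 in pachytene spermatocytes, with 1482 genes (7.54%) at an unadjusted p below 0.05, and 0.989 in round spermatids, with 667 (3.39%). The difference had a median of 0.0418 over all genes, with its 5th percentile at -0.587 and its 95th at 0.459. It exceeded 1 in 60 genes and was under -1 in 106. The median standard error of the difference was 0.244, against 0.18 for the effect in pachytene spermatocytes and 0.165 for that in round spermatids. For 75.7% of genes the 95% interval of the difference lay within 2-fold in either direction, and for 98.2% within 4-fold.

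The effects in the cell types were weakly related across genes. Pearson's r between them was -0.063 and Spearman's rho -0.229 over the 19647 genes, which share arrays and are not independent replicates. The effect was above 0 in pachytene spermatocytes and below 0 in round spermatids for 6845 genes (34.8%), the reverse held for 5210 (26.5%), and the sign was shared by 7592 (38.6%). An unadjusted p below 0.05 in both cell types was reached by 27 genes that were lower in pachytene spermatocytes and higher in round spermatids after the drug (0.137%), by 5 with the opposite pattern (0.0254%), and by 19 with the same direction in both (0.0967%).

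**Figure D1:**
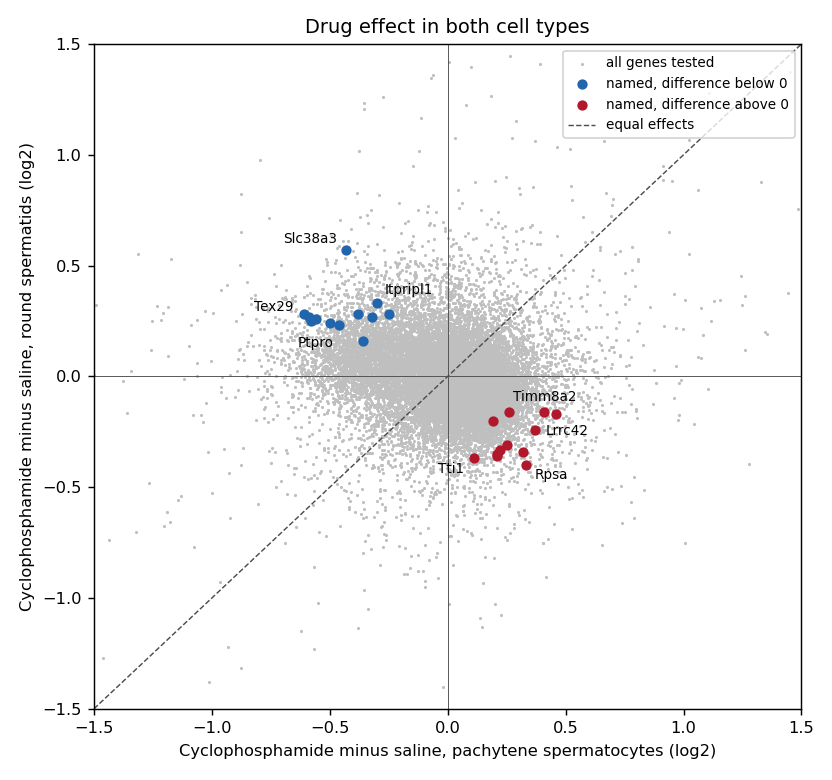
Drug effect (cyclophosphamide minus saline, log2) in pachytene spermatocytes on the x axis and in round spermatids on the y axis for the genes tested (grey), with the 12 named genes of each side in blue and red and equal effects as a dashed line. The blue genes lie above the dashed line and to the left of 0, the red genes below it and to the right of 0, and 25 genes lie outside the plotted range of 1.5 in either direction.

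Named genes were the 12 with the smallest unadjusted p on each side, among genes with a symbol that were well above background in all 4 groups. Because they were picked by the p of this difference, the values describe them and support nothing further. None passed, and the limma adjusted p was 0.634 for each. The promoters of the leading gene of each side, Ptpro and Lrrc42, and of the 3 named genes whose promoter holds a full cAMP response element, the site of CREM and related factors that act in spermatids, are shown as RefSeq gives them on GRCr8. Each runs 5′ to 3′ on the strand of the gene, from 250 bases before the annotated start to 50 after it. Capitals mark a cAMP response element (TGACGTCA), a GC box (GGGCGG) or a CCAAT box (CCAAT) on either strand.
Ptpro, chr4:171895261-171895560, plus strand: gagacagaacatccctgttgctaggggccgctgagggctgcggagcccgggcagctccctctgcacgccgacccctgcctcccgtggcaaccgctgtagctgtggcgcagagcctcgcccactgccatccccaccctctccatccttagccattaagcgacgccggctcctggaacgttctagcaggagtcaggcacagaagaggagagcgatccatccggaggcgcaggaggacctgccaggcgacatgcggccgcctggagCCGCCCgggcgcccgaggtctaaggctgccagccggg
Slc45a1, chr5:166412134-166412433, minus strand: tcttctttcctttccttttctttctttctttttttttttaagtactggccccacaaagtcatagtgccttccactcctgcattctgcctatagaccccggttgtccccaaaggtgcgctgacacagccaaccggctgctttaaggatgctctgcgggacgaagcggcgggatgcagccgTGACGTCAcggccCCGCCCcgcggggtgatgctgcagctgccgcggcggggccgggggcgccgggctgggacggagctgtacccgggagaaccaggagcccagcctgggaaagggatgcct
Rnf44, chr17:9930125-9930424, plus strand: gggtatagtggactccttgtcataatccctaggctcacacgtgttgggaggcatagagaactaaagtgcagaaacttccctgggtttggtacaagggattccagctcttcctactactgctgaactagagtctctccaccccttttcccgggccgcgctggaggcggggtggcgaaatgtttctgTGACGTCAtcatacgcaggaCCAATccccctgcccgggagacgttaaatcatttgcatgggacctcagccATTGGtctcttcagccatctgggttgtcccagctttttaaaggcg
Lrrc42, chr5:127264550-127264849, minus strand: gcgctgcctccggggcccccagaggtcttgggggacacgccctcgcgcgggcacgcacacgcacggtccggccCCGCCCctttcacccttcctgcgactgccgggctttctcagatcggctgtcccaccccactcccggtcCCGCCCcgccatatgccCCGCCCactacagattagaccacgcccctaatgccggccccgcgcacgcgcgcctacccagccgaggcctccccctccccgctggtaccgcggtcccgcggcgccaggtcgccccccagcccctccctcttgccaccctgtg
Nrbf2, chr20:21307150-21307449, plus strand: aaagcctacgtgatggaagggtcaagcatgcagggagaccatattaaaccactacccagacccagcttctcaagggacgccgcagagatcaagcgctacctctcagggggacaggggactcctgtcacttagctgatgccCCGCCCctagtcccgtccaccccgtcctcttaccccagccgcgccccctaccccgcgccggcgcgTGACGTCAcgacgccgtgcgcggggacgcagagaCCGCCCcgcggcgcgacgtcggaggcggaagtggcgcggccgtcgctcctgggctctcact

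Promoter windows were matched for 9 of the 12 genes with a lower effect in pachytene spermatocytes, for 11 of the 12 with a higher one and for 9329 of the 11347 tested genes with a symbol. The genes without a match were Slc38a3, Cimap1c, Slc1a5 and Tab1. The cAMP response element was in 2 of the 9 windows, Slc45a1 and Rnf44, in 1 of the 11, Nrbf2, and in 3.11% of the 9329. The GC box was in 5 of 9, in 7 of 11 and in 56.8%, and the CCAAT box in 3 of 9, in 3 of 11 and in 38.4%. The core letters of the MYB site (CAGTTG) were in 2 of 9, in 0 of 11 and in 11.4%. None of these motifs contains another, both strands were searched, and a match describes the letters of the window.

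On the lower side, the 12 genes were less abundant after cyclophosphamide in pachytene spermatocytes and more abundant after it in round spermatids. They were also all brighter on the spermatid arrays than on the pachytene arrays. So was the summed level of the macrophage and leukocyte markers given further below, and which cells the 12 transcripts came from was not tested. Ptpro and Ptprh encode receptor-type tyrosine phosphatases, Pik3ap1 an adaptor of phosphoinositide 3-kinase, Slc38a3 and Slc1a5 amino acid transporters that carry glutamine, and Slc45a1 a sugar transporter. Zfp36l1 is an RNA-binding protein that promotes the decay of messages with AU-rich elements, Nrros controls reactive oxygen species and latent TGF-beta, Cimap1c belongs to the microtubule-associated proteins of cilia, and Rnf44 is a RING finger protein. Tex29 and Itpripl1 complete the side. The pachytene groups did not overlap in 5 of the 12, namely Ptpro, Pik3ap1, Tex29, Ptprh and Slc1a5, against 0.234% of all genes with the cyclophosphamide arrays lower. The spermatid groups did not overlap in Slc1a5 alone, against 0.143% of all genes with the cyclophosphamide arrays higher. Both shares are printed for scale, since the choice of genes used these contrasts.

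Values per array are given for the cyclophosphamide pachytene rats 7, 15, 16-2011, 16-2012 and 29 and the saline pachytene rats 13, 16, 25, 26 and 28, in that order, and as the lowest, median and highest of the 6 spermatid arrays. Ptpro lay at -3.57, -3.85, -3.59, -3.66 and -3.77 after cyclophosphamide and at -3.22, -3.24, -3.26, -3.41 and -3.03 after saline in pachytene spermatocytes. In round spermatids it lay at -1.80, -1.75 and -1.35 after cyclophosphamide and at -2.06, -1.87 and -1.78 after saline. Every treated pachytene array was below every saline one, while the spermatid groups overlapped. The effect on Ptpro was -0.46 ± 0.10 (SE) in pachytene spermatocytes and 0.23 ± 0.10 in round spermatids, a difference of -0.69 ± 0.14 (95% interval -0.99 to -0.40; unadjusted p = 7.77e-05 in the limma fit). A dimmer probe of Ptpro gave -0.67.

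Pik3ap1 was at -5.58, -5.24, -5.41, -5.27 and -5.33 after cyclophosphamide and at -4.88, -4.45, -4.99, -5.06 and -4.92 after saline in pachytene spermatocytes. The spermatid arrays had Pik3ap1 at -2.79, -2.68 and -2.42 after the drug and at -3.04, -2.93 and -2.56 after saline. The pachytene groups were again apart, and in spermatids 1 saline array, of rat 15, lay among the treated ones. The difference of Pik3ap1 was -0.74 ± 0.16, from effects of -0.50 ± 0.12 and 0.24 ± 0.11.

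Slc38a3 had the largest difference of the 24 named genes, -1.0 ± 0.25 (95% interval -1.51 to -0.48), which is 2-fold. Its pachytene levels were -5.27, -4.80, -4.86, -4.93 and -5.39 after cyclophosphamide and -4.91, -4.11, -4.98, -4.76 and -4.36 after saline, with overlap. In round spermatids Slc38a3 was at -2.26, -1.78 and -1.59 after the drug and at -2.96, -2.38 and -2.06 after saline. All 6 treated spermatid arrays were above the saline mean, and the groups overlapped through cyclophosphamide rat 16 at -2.26 and the saline rats 15 and 17 at -2.06 and -2.23. Here the spermatid effect, 0.57 ± 0.17, was larger than the pachytene one of -0.43 ± 0.18.

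Slc1a5 was the gene of this side whose groups were apart in both cell types. Pachytene levels of Slc1a5 were -3.53, -3.57, -3.56, -3.70 and -3.54 after cyclophosphamide and -3.45, -3.45, -3.41, -3.44 and -2.89 after saline. Its spermatid levels were -1.83, -1.73 and -1.61 after the drug and -2.28, -1.92 and -1.87 after saline. The gaps between the groups were small, and saline pachytene rat 28, at -2.89, stood apart from the others of its group. The difference of Slc1a5 was -0.54 ± 0.15, from effects of -0.25 ± 0.11 and 0.28 ± 0.10.

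For the other 8 genes of the lower side the difference ranged from -0.89 for Tex29 to -0.52 for Zfp36l1. Tex29 had effects of -0.61 ± 0.17 in pachytene spermatocytes and 0.28 ± 0.15 in round spermatids. Cimap1c had a difference of -0.86 ± 0.24, Slc45a1 of -0.84 ± 0.22 and Rnf44 of -0.82 ± 0.23. These 4 took most of their difference from the pachytene effect, which was between -0.61 and -0.56, while their spermatid effects lay between 0.25 and 0.28. Itpripl1 drew on both cell types, with a spermatid effect of 0.33 ± 0.12 and a pachytene effect of -0.30 ± 0.13. The differences of Nrros and Ptprh were -0.66 ± 0.19 and -0.59 ± 0.16.

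**Figure D2:**
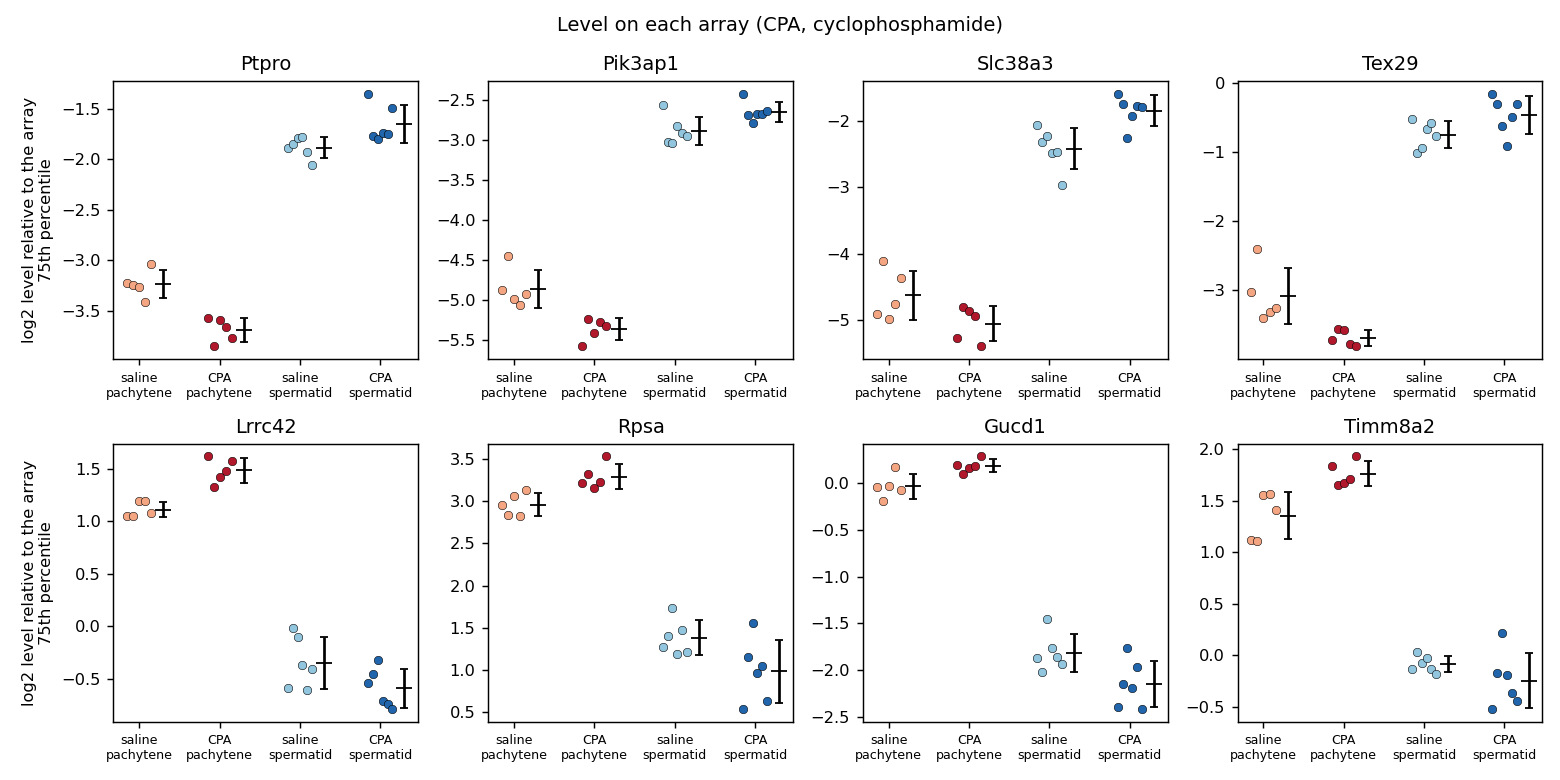
Level on each array (log2 relative to the array's 75th percentile, y axis) in the 4 groups for the 4 genes with the smallest p on the lower side (top row) and on the higher side (bottom row); points are arrays, bars the mean and SD. Ptpro, Pik3ap1 and Tex29 have all treated pachytene arrays below the saline ones, Lrrc42, Rpsa and Timm8a2 have them above, and in all 8 genes the spermatid groups overlap.

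On the higher side, the 12 genes were more abundant after cyclophosphamide in pachytene spermatocytes and less abundant after it in round spermatids, and all were brighter in pachytene cells. Rpsa is a protein of the small ribosomal subunit, Timm8a2 belongs to the small chaperones of import into the inner mitochondrial membrane, and Tti1 is part of the complex that stabilises ATM, ATR and mTOR kinases. Gtf2i is a transcription factor, Kdm8 a Jumonji-domain protein, Hmgb2 a chromatin protein of the high-mobility group, and Nrbf2 a subunit of the autophagy lipid kinase. Tab1 activates the kinase TAK1, Cyb561d2 belongs to the cytochrome b561 family, and Lrrc42, Gucd1 and Atrn complete the side. Their differences ranged from 0.38 for Tab1 to 0.73 for Rpsa. The pachytene groups did not overlap in 5 of the 12, Lrrc42, Rpsa, Timm8a2, Gtf2i and Tab1, against 0.387% of all genes with the treated arrays higher. The spermatid groups did not overlap in Tti1 alone, against 0.0407% of all genes with the treated arrays lower.

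Lrrc42, a leucine-rich repeat protein, was at 1.62, 1.33, 1.42, 1.48 and 1.58 after cyclophosphamide and at 1.05, 1.05, 1.19, 1.19 and 1.08 after saline in pachytene spermatocytes. In round spermatids Lrrc42 lay at -0.79, -0.63 and -0.32 after the drug and at -0.61, -0.39 and -0.02 after saline. The pachytene groups were apart and the spermatid groups overlapped. The effects were 0.37 ± 0.12 and -0.24 ± 0.11, a difference of 0.62 ± 0.16 (95% interval 0.27 to 0.96; unadjusted p = 0.00115 in the limma fit).

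Rpsa had pachytene levels of 3.22, 3.32, 3.15, 3.23 and 3.53 after cyclophosphamide and of 2.95, 2.84, 3.06, 2.82 and 3.13 after saline. The spermatid levels of Rpsa were 0.54, 1.01 and 1.56 after the drug and 1.19, 1.34 and 1.74 after saline. The treated pachytene arrays were above all saline ones by a narrow margin, and the treated spermatid arrays spread widely. The difference of Rpsa was 0.73 ± 0.21, but another probe of Rpsa gave 0.15. Genes of ribosomal proteins have near-identical copies, which a probe may not tell apart.

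Tti1 took most of its difference from the spermatids. Its levels there were 0.38, 0.42 and 0.59 after cyclophosphamide and 0.68, 0.77 and 1.07 after saline, with no overlap. In pachytene spermatocytes Tti1 was at 1.90, 2.34, 2.12, 2.41 and 2.25 after the drug and at 2.0, 2.20, 2.23, 2.16 and 1.86 after saline, and the groups covered the same range. The effects were 0.11 ± 0.11 in pachytene spermatocytes and -0.37 ± 0.10 in round spermatids, and the difference of Tti1 was 0.48 ± 0.15. Kdm8 drew on both cell types, with effects of 0.21 ± 0.13 and -0.35 ± 0.12, as did Atrn with 0.21 ± 0.14 and -0.36 ± 0.12.

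Timm8a2 and Nrbf2 took theirs from the pachytene cells. Timm8a2 was at 1.84, 1.65, 1.67, 1.71 and 1.93 after cyclophosphamide and at 1.12, 1.11, 1.56, 1.57 and 1.41 after saline in pachytene spermatocytes, an effect of 0.41 ± 0.13 against -0.16 ± 0.12 in round spermatids. Nrbf2 had effects of 0.46 ± 0.15 and -0.17 ± 0.14, and its pachytene groups overlapped because saline rat 13, at -1.46, reached the treated range of -1.49 to -1.22. Where a gene of the higher side had a second probe, that probe gave a difference of 0.60 for Nrbf2 and 0.52 for Hmgb2. It gave smaller ones of 0.21 for Gtf2i, 0.20 for Timm8a2 and 0.10 for Tab1, so the size of these 3 differences depends on the probe.

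Opposite effects at an unadjusted p below 0.05 in both cell types were found for 12 of the 9829 genes with a symbol and a signal in all 4 groups, and effects of the same direction for 2. Over all 19647 genes the shares were 0.137% and 0.0254% for the opposite patterns and 0.0967% for the same direction. At that p in pachytene spermatocytes alone were 7.54% of all genes, and in round spermatids alone 3.39%. Whether 12 against 2 is more than chance gives was not tested. Of the 12, 10 were lower in pachytene spermatocytes and higher in round spermatids, and Lrrc42 and Rpsa were the other 2. The leading genes of the first kind included Ptpro, Slc38a3, Ptprh, Itpripl1 and Nrros.

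The smallest adjusted p of all tested features, 0.0586, belonged to a probe under the transcript name ENSRNOT00000012391, which has no symbol in the gene table and was singled out after its values were seen. It was not well above background on any of the 10 pachytene arrays, so no difference is given for it. In round spermatids ENSRNOT00000012391 was well above background on 5 of 6 treated and 3 of 6 saline arrays, with means of -5.15 and -5.68.

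Gene lists describe which functions lay on either side, and 39 lists were used. For each, the median difference of its tested members is set beside 0.0418, the median of all genes, and 55.2% of all genes lay above 0. No member of any list passed the adjusted p. The members of a list were measured on the same arrays and are not independent. In bulk preparations such as these, fewer cells of a type and less RNA per cell cannot be told apart.

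Genes of spermatid formation lay below 0, as did most genes that were brighter in spermatids, whatever their function. Genes 1 to 2 log2 units higher in spermatids had a median of -0.17, and those 2 to 3 units higher -0.43. Of the latter, 27.0% were at an unadjusted p below 0.05 on the lower side. The median difference was -0.34 for 18 round spermatid markers, with 16 below 0 and 6 at an unadjusted p below 0.05 on the lower side, where the share among all genes was 5.07%. It was -0.38 for 14 late spermatid markers, with 13 below 0 and 1 at that p. Among 50 genes of spermatid differentiation and the sperm tail the median was -0.15, with 31 below 0 and 10 at that p, and none of the 3 lists had a member at that p on the higher side. For the round and late spermatid markers nearly all of this came from the pachytene arrays, where the median effects were -0.31 and -0.36, against 0.05 and 0.03 in round spermatids. For the sperm tail list the median effects were -0.09 and 0.02, with 28 of 50 genes below 0 in pachytene spermatocytes and 30 above 0 in round spermatids. Spaca4, a protein of the sperm surface and acrosome, had pachytene levels of 1.84, 2.42, 1.96, 1.81 and 1.97 after cyclophosphamide and of 2.60, 2.98, 2.34, 2.23 and 2.38 after saline. Only treated rat 15 reached the saline range, and the difference of Spaca4 was -0.69 ± 0.22, with a spermatid effect of 0.18. Acrv1, an acrosomal protein, had a difference of -0.60 ± 0.24 and Akap4, the main protein of the fibrous sheath of the tail, of -0.72 ± 0.34. The mean level of the round spermatid markers was 1.608, 1.963, 1.534, 1.494 and 1.741 on the treated and 2.13, 2.294, 1.795, 1.631 and 1.88 on the saline pachytene arrays, and these groups overlapped. The median of the round spermatid list was -0.48 without saline pachytene rat 26 and -0.25 without rat 16, and within slide 1 it was -0.37 and within slide 2 -0.02. For the late spermatid list these values were -0.56, -0.26, -0.67 and 0.06, so on slide 2, with 1 pachytene array of each treatment, the shift was not seen. The median of the sperm tail list was -0.07 without saline pachytene rat 26.

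**Figure D3:**
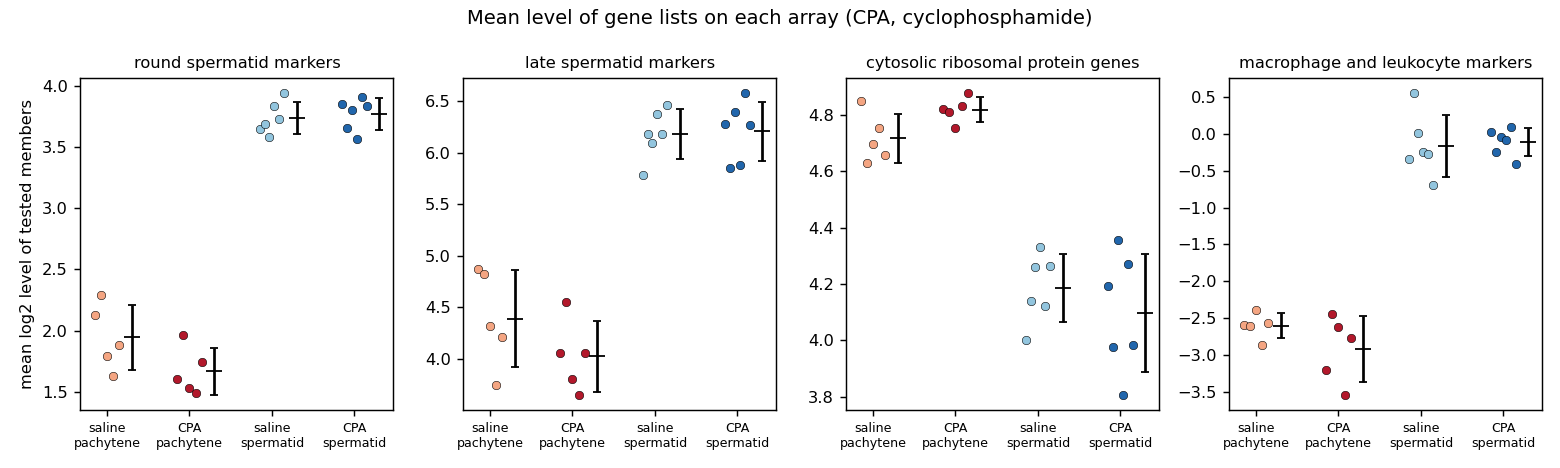
Mean level of the tested members of 4 gene lists on each array (log2 relative to the array's 75th percentile, y axis) in the 4 groups; points are arrays, bars the mean and SD. In the pachytene groups the spermatid lists spread over about as wide a range among saline rats (1.63 to 2.29 for round spermatid markers) as among treated ones (1.49 to 1.96), and the ranges overlap.

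Genes of the general cell machinery lay slightly above 0, as did most genes with a like preference for pachytene cells. On saline pachytene arrays the ribosomal, proteasome and oxidative phosphorylation lists had mean levels of 4.72, 1.87 and 3.24. On saline spermatid arrays these were 4.19, 1.36 and 2.63. Among genes well above background and 0.5 to 1 log2 unit higher in pachytene cells, the median was 0.16 and 84.6% lay above 0. The median difference was 0.18 for 76 cytosolic ribosomal protein genes, of which 74 were above 0, 0.18 for 45 proteasome genes with 38 above 0, and 0.19 for 73 genes of oxidative phosphorylation with 66 above 0. All 13 tested genes of the cytosolic chaperonin and its prefoldin partner were above 0, with a median of 0.15. At an unadjusted p below 0.05 on the higher side there were 6 ribosomal, 2 proteasome, 3 oxidative phosphorylation and 0 chaperonin genes, against 2.57% of all genes. Rpl7a, of the large ribosomal subunit, had a difference of 0.44 ± 0.16, the proteasome core subunit Psma4 of 0.36 ± 0.14 and Sdhc, an anchor of succinate dehydrogenase, of 0.43 ± 0.20. In the ribosomal, proteasome and oxidative phosphorylation lists the shift came from small effects of opposite sign, with medians of 0.09, 0.09 and 0.12 in pachytene spermatocytes and -0.08, -0.08 and -0.05 in round spermatids. Relative to the median of all genes, these 3 lists were at 0.13, 0.14 and 0.15, and at 0.06, 0.07 and 0.08 with quantile normalization. Each of slides 1 and 2 held 1 pachytene array of each treatment. The ribosomal median was -0.16 within slide 1 and 0.45 within slide 2 and the oxidative phosphorylation median -0.01 and 0.32, while the proteasome median was 0.15 and 0.16. Without cyclophosphamide spermatid rat 25 the ribosomal median was 0.11. The mean ribosomal level was 4.75 to 4.88 on treated and 4.63 to 4.85 on saline pachytene arrays, so the groups overlapped.

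DNA repair genes, which act on the lesions that cyclophosphamide makes, showed no difference of drug effects that passed. Medians were 0.17 for 14 nucleotide excision repair genes with 12 above 0, 0.11 for 21 homologous recombination genes, 0.10 for 10 mismatch repair genes and 0.03 for 13 genes of alkylation reversal and translesion synthesis. They were 0.00 for 16 base excision repair genes, -0.01 for 10 end joining genes and -0.04 for 14 interstrand crosslink repair genes. Leaving out 1 array moved several of these across 0: alkylation reversal was at -0.04 without cyclophosphamide pachytene rat 16-2012, crosslink repair at 0.06 without saline pachytene rat 16 and end joining at 0.08 without cyclophosphamide spermatid rat 26. Base excision repair ranged from -0.08 without cyclophosphamide pachytene rat 29 to 0.11 without cyclophosphamide pachytene rat 7, and homologous recombination was at 0.04 without saline pachytene rat 13. Ercc3, a helicase of excision repair, had a difference of 0.33 ± 0.12, and Rbbp8, which starts end resection, of 0.33 ± 0.14. Parp1, which marks strand breaks with poly(ADP-ribose), had a difference of 0.40 ± 0.20 and Aptx, which removes blocked ends, of -0.48 ± 0.22. In the DNA damage signalling list, 14 of 18 genes were above 0 with a median of 0.15, against 55.2% of all genes. Saline means of this list were -0.686 in pachytene cells and -1.48 in spermatids, and those of the nucleotide excision repair list -0.24 and -0.981. Genes well above background and 0.5 to 1 log2 unit higher in pachytene cells had a like median of 0.16, with 84.6% above 0. Rad1, of the checkpoint clamp, lay at -0.57, -0.40, -0.42, -0.49 and -0.30 on treated and at -0.66, -0.27, -0.38, -0.58 and -0.75 on saline pachytene arrays. In spermatids Rad1 lay at -3.35, -3.07 and -2.58 after the drug and at -2.95, -2.35 and -2.25 after saline. The groups overlapped in both cell types, and its difference of 0.61 ± 0.22 came from the spermatid effect of -0.52.

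Stress and death genes were spread on both sides. The median was 0.06 for 24 genes of p53 and its targets, 0.11 for 31 apoptosis regulators and caspases, 0.07 for 36 antioxidant genes and 0.08 for 34 glutathione transferases and aldehyde dehydrogenases, which detoxify metabolites of cyclophosphamide. The p53 median was -0.01 without saline pachytene rat 26 and 0.16 without saline pachytene rat 16. The median was 0.07 for 35 heat shock proteins and chaperones and 0.17 for 28 genes of the unfolded protein response. Tradd, the adaptor of the tumour necrosis factor receptor, had pachytene levels of -2.86, -2.11, -2.02, -2.81 and -2.60 after cyclophosphamide and of -3.04, -3.30, -2.63, -3.58 and -3.42 after saline. Saline rat 25 lay in the treated range, and the difference of Tradd was 0.88 ± 0.30, from effects of 0.72 and -0.16. In the antioxidant list 27 of 36 genes were above 0, against 55.2% of all genes, and its leading members went the other way. Srxn1, which reactivates peroxiredoxins, and Txndc2, a thioredoxin of the sperm tail, each had a difference of -0.68, with standard errors of 0.29 and 0.32. Both were brighter in spermatids, with saline means of -3.2 in pachytene cells and -1.09 in spermatids for Srxn1 and of -1.18 and 1.93 for Txndc2. Zmat3 and Plk2, the leading members of the p53 list, had differences of 0.41 ± 0.24 and 0.28 ± 0.18.

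Meiotic, chromatin and metabolic lists gave medians between -0.03 and 0.18. The median was 0.16 for 17 pachytene markers, 0.14 for 36 genes of the meiotic divisions, 0.17 for 18 genes of the piRNA pathway, which silences transposons, and 0.08 for 20 genes of the synaptonemal complex and cohesin. It was 0.14 for 29 histones and histone chaperones, 0.07 for 31 DNA and histone modifying enzymes, 0.13 for 49 translation factors and poly(A) binding proteins, 0.18 for 23 tubulins and cofactors, 0.15 for 26 cholesterol synthesis genes and -0.03 for 34 glycolysis genes. In the synaptonemal complex list 12 of 20 genes were above 0 and in the meiotic division list 29 of 36, against 55.2% of all genes. A member of each went the other way. Sun1, which ties telomeres to the nuclear envelope, had a difference of -0.55 ± 0.20. Anapc10, a subunit of the anaphase-promoting complex, had one of -0.52 ± 0.21, mostly from a spermatid effect of 0.38. Both were brighter in spermatids, with saline means of 0.82 in pachytene cells and 2.69 in spermatids for Sun1 and of -1.8 and -0.2 for Anapc10. Pfkfb4, which sets the level of the activator of phosphofructokinase, had a difference of -0.61 ± 0.20 and Aldoart2, an aldolase of sperm, of -0.44 ± 0.18. In the glycolysis list 5 of 34 genes were at an unadjusted p below 0.05 on the lower side and 0 on the higher, against 5.07% and 2.57% of all genes. Among genes 2 to 3 log2 units higher in spermatids, 27.0% were at that p on the lower side and 0 on the higher. On saline arrays the mean of Pfkfb4 was -0.78 in pachytene cells and 1.15 in spermatids, and that of Aldoart2 1.59 and 3.71. Whether the glycolysis count goes beyond this preference for spermatids was not tested. Without saline pachytene rat 16 the median was 0.08 for the piRNA list and 0.06 for cholesterol synthesis, and without saline pachytene rat 13 it was -0.01 for the synaptonemal complex list. For 26 class I histocompatibility and antigen processing genes the median was -0.01, and 0.09 without saline spermatid rat 29. Their widest member was Tap1, a peptide transporter, with a difference of 1.0 ± 0.37, but it was well above background on 3 of 5 treated and 1 of 5 saline pachytene arrays.

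**Figure D4:**
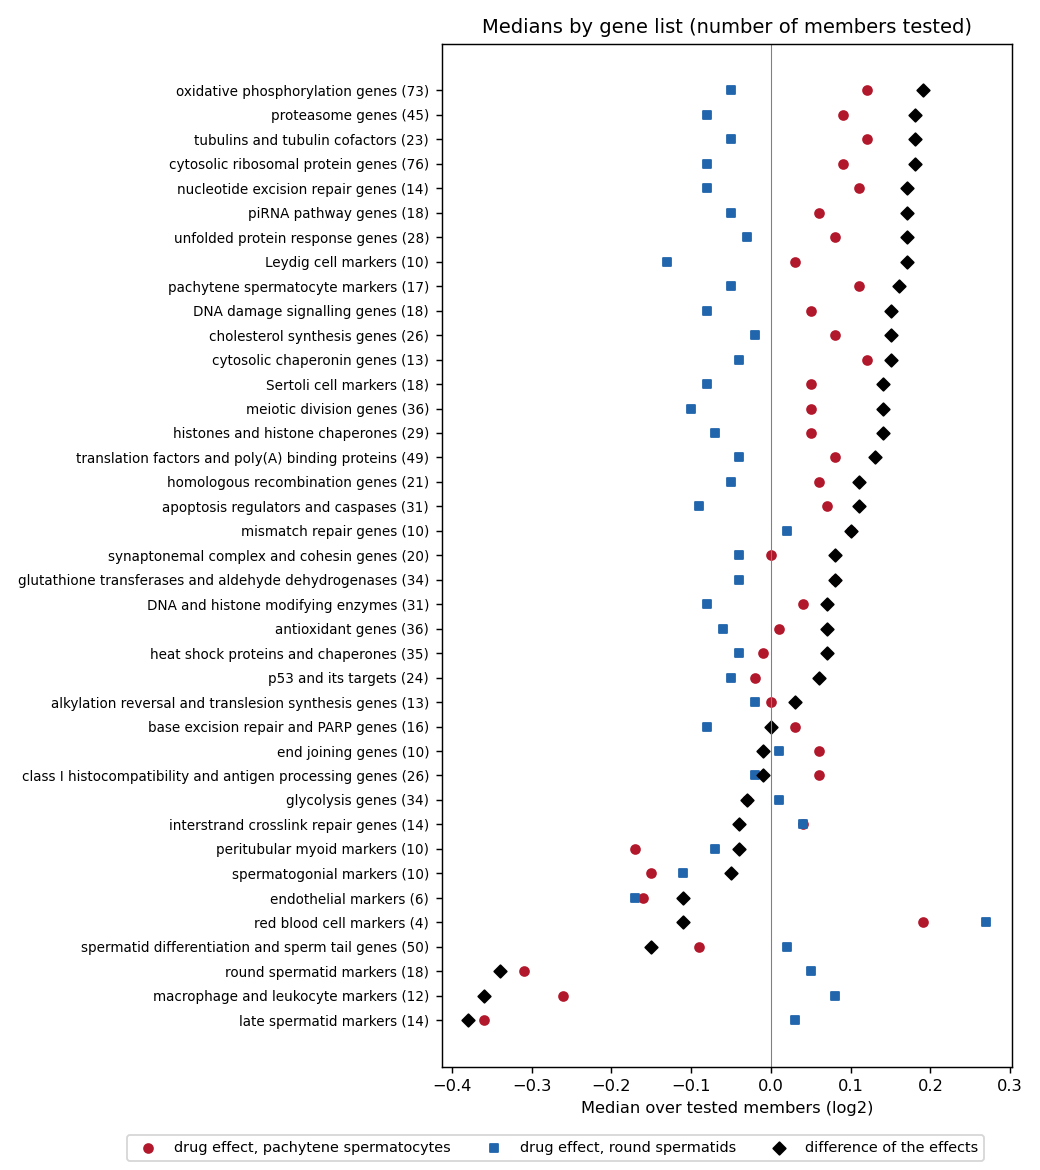
Median over the tested members of each gene list (log2, x axis) of the drug effect in pachytene spermatocytes (red), the drug effect in round spermatids (blue) and their difference (black), with the number of members tested in brackets. The round spermatid, late spermatid and macrophage marker lists lie lowest, with differences of -0.38 to -0.34, and the list of spermatid differentiation and sperm tail genes lies at -0.15. The oxidative phosphorylation, proteasome, tubulin and ribosomal lists lie highest, at 0.18 to 0.19.

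Markers of other cells were measurable in both kinds of preparation, and their part in the differences was not tested. Of 12 macrophage and leukocyte markers 11 were below 0, against 44.8% of all genes, and none was at an unadjusted p below 0.05. Their median difference was -0.36, with effects of -0.26 in pachytene spermatocytes and 0.08 in round spermatids. Genes well above background and 2 to 3 log2 units higher in spermatids had a like median of -0.43, with 2.06% above 0. The mean level of the macrophage markers was -2.6 on saline pachytene arrays and -0.168 on saline spermatid arrays. Their summed level, on the linear scale and relative to the array's 75th percentile, was 9.46 to 18.8 on treated and 10.5 to 23.2 on saline pachytene arrays, and 56.1 to 92.3 and 56.3 to 84.4 on the spermatid arrays, so all group pairs overlapped. Without cyclophosphamide pachytene rat 16-2012 the macrophage median was -0.23. Cd74, the invariant chain of class II molecules, had a difference of -1.12 ± 0.61. For 18 Sertoli cell markers, 14 above 0, the median was 0.14 and the sums were 43.6 to 75.2 and 51.4 to 66.2 on the pachytene arrays and 15.7 to 27.0 and 18.0 to 32.4 on the spermatid arrays. For 10 Leydig cell markers, 7 above 0, the median was 0.17, with sums of 14.2 to 18.4, 13.6 to 20.3, 6.86 to 10.3 and 8.04 to 10.1 in the same order. Of all genes 55.2% lay above 0. Genes well above background and 1 to 2 log2 units higher in pachytene cells had a median of 0.22, with 90.8% above 0. Mean levels on saline pachytene and saline spermatid arrays were -0.911 and -2.63 for the Sertoli markers and -1.25 and -2.7 for the Leydig markers. Leaving out 1 array turned the sign of the Leydig median, to -0.05 without saline pachytene rat 16, and took the Sertoli median to 0.01 without cyclophosphamide spermatid rat 25 and to 0.27 without cyclophosphamide pachytene rat 16-2012. The median was -0.04 for 10 peritubular myoid, -0.05 for 10 spermatogonial, -0.11 for 6 endothelial and -0.11 for 4 red blood cell markers. These 4 medians also changed sign, to 0.11 without cyclophosphamide pachytene rat 7, 0.08 without cyclophosphamide pachytene rat 16-2012, 0.08 without saline pachytene rat 16 and 0.05 without cyclophosphamide spermatid rat 14. Zbtb16, which marks spermatogonial stem cells, was not well above background on any pachytene array, and Dhh, a Sertoli cell ligand, on no spermatid array. Flt1, an endothelial receptor, was well above background on 0 of 5 treated and 4 of 5 saline pachytene arrays, so no difference is given for it.

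The difference of drug effects was graded by how strongly a gene was expressed in one cell type over the other. The 16939 genes well above background in all 4 groups were put into classes by their level in round spermatids minus that in pachytene spermatocytes, averaged over both treatments, a measure to which both treatments contribute equally. Genes more than 3 log2 units higher in pachytene cells had a median difference of 0.33 (208 genes, 95.7% above 0), and those 2 to 3 units higher there 0.27 (959 genes, 94.0% above 0). The median was 0.22 for 1 to 2 units (2508 genes), 0.16 for 0.5 to 1 unit (2305 genes) and 0.07 for genes within 0.5 units in either direction (5343 genes). Among genes higher in spermatids it was -0.04 for 0.5 to 1 unit (1649 genes), -0.17 for 1 to 2 units (1839 genes), -0.43 for 2 to 3 units (1893 genes, 2.06% above 0) and -0.53 above that (235 genes, 2.55% above 0). At an unadjusted p below 0.05, the class 2 to 3 units higher in spermatids held 511 genes below 0, 27.0% of the class against 5.07% of all genes, and 0 above 0, against 2.57%.

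In the medians of the outer classes, levels in the cell types lay further apart in the cyclophosphamide groups than in the saline groups. Treated and saline arrays overlapped in these classes, as given below, so this describes the group medians only. For the class 2 to 3 units higher in spermatids the median distance between the cell types was 2.75 after cyclophosphamide and 2.32 after saline. For the class 2 to 3 units higher in pachytene cells the distance was -2.50 and -2.22. In the first of these classes the pachytene effect made up most of the difference, -0.34 against 0.09 in round spermatids, while in the second both contributed alike, 0.14 and -0.14. The genes of a class share the same 22 arrays, so the number of genes gives no measure of error here, and the classes were drawn up after earlier results of these data were known.

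**Figure D5:**
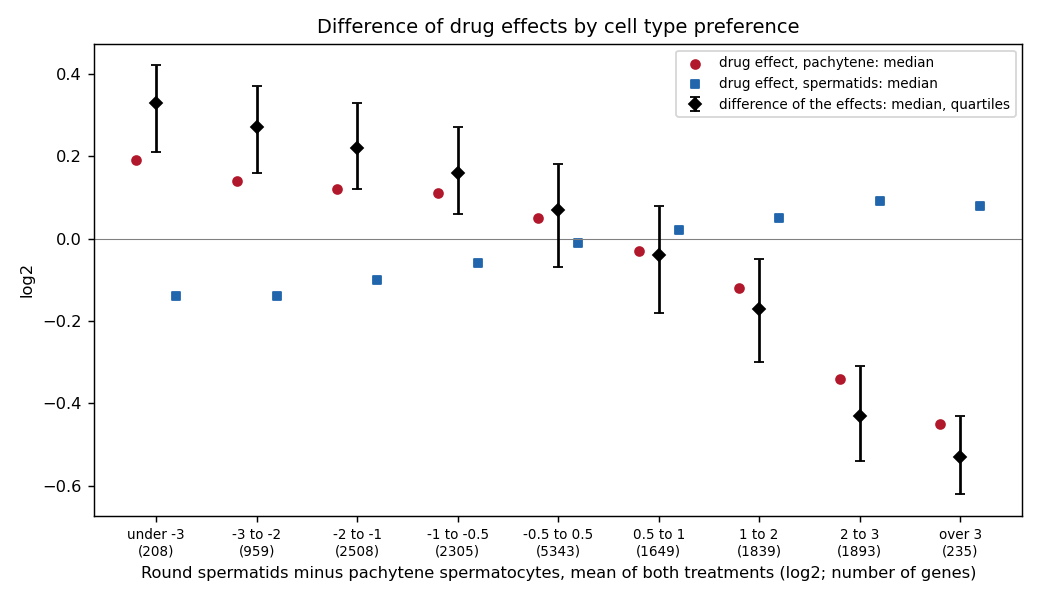
Median drug effect in pachytene spermatocytes (red), in round spermatids (blue) and their difference with its quartiles (black), in log2, for genes grouped by their level in round spermatids minus that in pachytene spermatocytes (x axis, number of genes in brackets). The difference goes from 0.33 in the class most biased to pachytene cells to -0.53 in the class most biased to spermatids, and the effects in the cell types have opposite signs at both ends.

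On single arrays, the shift of the genes higher in spermatids varied widely among saline rats, and that of the genes higher in pachytene cells less so on the pachytene arrays. For the 2128 genes more than 2 log2 units higher in spermatids, the median deviation from the saline pachytene mean was -0.44, -0.01, -0.36, -0.61 and -0.34 on the treated pachytene arrays. On the saline pachytene arrays it was 0.12, 0.51, -0.08, -0.52 and -0.06. Of the 5 treated arrays 4 lay within the saline range, saline rat 26 was lower than all of them except rat 16-2012, and saline rat 16 was far above its group. For the 1167 genes more than 2 units higher in pachytene cells, the deviation from the saline pachytene mean was 0.10, 0.13, 0.18, 0.16 and 0.17 on the treated pachytene arrays and -0.08, 0.00, 0.14, -0.03 and -0.01 on the saline ones. Of the saline arrays only rat 25 reached the treated range. For the same genes the deviation from the saline spermatid mean was -0.18 to -0.05 on the 6 treated spermatid arrays and -0.26 to 0.34 on the 6 saline ones, with overlap. The median of the class 2 to 3 units higher in spermatids was -0.56 without saline pachytene rat 26 and -0.30 without saline pachytene rat 16, the lowest and highest values when 1 array was left out. It was -0.35 within slide 1 and -0.22 within slide 2, and -0.44 with slide as a block. In the class 2 to 3 units higher in pachytene cells the median was 0.20 without saline spermatid rat 17 and 0.32 without saline spermatid rat 29, and 0.44 within slide 1 and 0.10 within slide 2. Every one of these values kept its sign, while the smaller shifts of the middle classes did not: the class within 0.5 units was at -0.12 within slide 1 and 0.11 within slide 2.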

How the data were processed

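Gene expression in pachytene spermatocytes and round spermatids of cyclophosphamide and saline rats was measured on 22 one-colour arrays, 5 or 6 per group. Each spot's processed signal, an intensity, was deposited after background subtraction by Feature Extraction (version 11.5.1.1 per the submitters' processing notes, 10.7.3.1 per the file headers) and without scaling between arrays. The authors also deposited a table of log2 values. Set against the scanner values, each column correlated with its own array at 1 (rounded) once those were quantile normalized and centred on each probe within a cell type. Its column medians were -0.00975 to 0.00702, and the exact steps are not given in the sources used here, so it served as an alternative only.

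Outlier and control spots were left out, spots of a probe were averaged, and the log2 signal was scaled by subtracting the array's 75th percentile of the 30367 probes; 37 probes without a usable spot on some array were dropped. RefSeq accessions named 17998 probes (59.3%) with 15154 symbols (gene table of GRCr8), and 12369 had none. A gene is its probe with the highest mean. It was tested if, in 1 group or more, no more than 1 array failed to have more than 0.5 of its spots well above background. Group means of all 22 arrays were fitted with limma 3.58.1 (statmod 1.5.0, R 4.3.3; lmFit, eBayes), and the difference of drug effects was tested at a Benjamini-Hochberg adjusted p of 0.05. The procedure was checked on simulated data. Tables and drawings used Python 3.11.15, numpy 2.4.6, pandas 2.3.3, scipy 1.17.1 and matplotlib 3.10.9.

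Values with ± are limma standard errors. The number of arrays limits the precision. The compared gene lists, members and classes were chosen with earlier results of these data known. Named genes were the 12 smallest p on each side, 2 per list, and the 6 leading genes with opposite effects in each direction. 1 gene that this rule named is not reported here. Equal rat numbers within a treatment were checked for pairing: 6 such pairs of arrays deviated together at correlations of -0.088 to 0.381, and whether they name the same animals is not stated, so the reported fit has no block and a fit with one was an alternative. Rats 16-2011 and 16-2012 were taken as different animals. Alternatives covered slide, rat number, background (normexp with offset 50, on the median signal, since the mean signal was not used here), normalization, filters, probes of a gene, variance model, the deposited values, and each array left out.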

Additional observations from a re-analysis of the deposited data

Results flagged for a closer look

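In each group of 5 or 6 arrays, the highest and lowest array was compared with the rest for the 26 genes with full values and for the mean level of the 39 gene lists. Of 260 such groups 11 had an array far from the others, where chance alone gives about 1 in 20.

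Among the genes, Cyb561d2 was at -0.73 on saline pachytene rat 16, with the others of its group at -0.33 to -0.16. Tab1 was at -1.90 on cyclophosphamide spermatid rat 27 (others -1.75 to -1.68). Slc1a5 was at -3.70 on cyclophosphamide pachytene rat 16-2012 (others -3.57 to -3.53) and at -2.89 on saline pachytene rat 28 (others -3.45 to -3.41).

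Among the lists, the mean level of Leydig cell markers was -3.51 on cyclophosphamide spermatid rat 25 (others -2.75 to -2.38), and that of peritubular myoid markers -1.89 on saline pachytene rat 26 (others -1.36 to -1.15). On cyclophosphamide spermatid arrays, nucleotide excision repair genes were at -0.79 for rat 16 (others -1.12 to -1.01) and interstrand crosslink repair genes at -2.62 for rat 26 (others -2.88 to -2.79). Glutathione transferases and aldehyde dehydrogenases were at -1.03 for rat 25 (others -0.85 to -0.82), and unfolded protein response genes at -0.42 for rat 27 (others -0.35 to -0.32). Class I histocompatibility and antigen processing genes were at -1.58 on saline spermatid rat 29 (others -1.19 to -1.02).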

How the results depend on the processing

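With 0 genes past the adjusted p in the difference and in both drug effects, most alternatives also gave 0. Within slide 1 there were 3 genes for the difference, 2 for the pachytene effect and 1 for the spermatid effect, and within slide 2 there were 2, 1 and 4. Each of these slides holds 1 pachytene array of each treatment, so the spread there comes from the spermatid arrays alone and a lone pachytene array is assumed to vary like them. Both slides together gave 0, 3 and 0. The difference had 1 gene with rats 16-2011 and 16-2012 as 1 replicate, and 1 with the 75th percentile over probes detected on all arrays. In both cases it was ENSRNOT00000012391, with adjusted p = 0.0493 and 0.0392 in the limma fit, within a range of 0.00757 to 0.998 over its alternatives; no pachytene array had it well above background. Leaving out 1 array gave 0 to 1 genes for the difference, 0 to 2 for the pachytene effect and 0 to 0 for the spermatid effect. For the pachytene effect these were 2 without cyclophosphamide pachytene rat 16-2011 and 1 without saline pachytene rat 25 or 28. For the difference the same probe was called without cyclophosphamide pachytene rat 16-2011, saline pachytene rat 25, cyclophosphamide spermatid rat 26 or saline spermatid rats 15 or 29. The fit with rat number as a replicate block gave 0 genes in all 3 comparisons, whether the rats numbered 16 were kept apart (correlation 0.035) or joined (0.021). The count at an unadjusted p below 0.05 moved more: from 505 above and 997 below 0 to 969 and 1719 with array quality weights, to 905 and 1847 without saline pachytene rat 26, to 246 and 499 on slides 1 and 2 together, and to 468 and 656 with normexp. All 24 named genes kept the sign of their difference in the 39 or 40 alternatives that gave each a value. They had been picked by the p of this difference on the same arrays, so a kept sign supports nothing further. Of the 39 list medians under 40 alternatives each, 1502 values moved by less than the spread between replicates and 58 by more. The number of arrays per group limits all of these.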
